A study of Caenorhabditis elegans with 2 samples.

Results

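The regions described here are the CHD-3 peaks of Caenorhabditis elegans chromosome IV that lie outside the 2 domains of this chromosome known for their piRNA genes. They were picked by position alone: the midpoint of a peak had to lie below 4500000 (left arm), above 7000000 and below 13500000 (middle stretch), or above 17200000 (right end). Of 4940 peaks in the list, 1072 lay on chromosome IV and 677 of these met the rule, 359 in the left arm, 306 in the middle stretch and 12 in the right end. The other 395 lay inside the piRNA domains, 153 in the left and 242 in the right one. All positions are on WormBase release WS220 and are counted from 1.

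CHD-3 is a worm relative of the Mi-2 ATPases, which slide nucleosomes and in many animals work in NuRD complexes together with histone deacetylases. Autosomes of C. elegans have gene-dense centres with low recombination and arms that recombine more and hold more repeats. The piRNAs of this animal, also called 21U-RNAs, guide the Argonaute PRG-1 in the germline, and most are transcribed from very short units packed into the 2 domains that the rule leaves out. The edges of these domains are taken from the rule, and the positions of piRNA genes were not compared with the peaks.

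Sequencing of immunoprecipitated chromatin (ChIP-seq) was done on hermaphrodites of the strain fem-2(b245), genotype fem-2(b245)III, at 20 °C, with an affinity-purified rabbit polyclonal antibody against CHD-3 (SDQ3849). The mutated gene fem-2 encodes a protein phosphatase that promotes male fates, and no strain with an intact fem-2 is among the samples. The stage was labelled as young adults with a germline, although the growth protocol speaks of gravid worms. The labels name 1 ChIP sample and 1 input sample, both numbered replicate 2, and the data analysed here are the 1 peak list of the ChIP sample, called by MACS, with no replicate list and no depth. Whether it pools libraries is not stated. The values therefore compare parts of 1 chromosome within 1 list, and no test was run. Intervals are 95% exact binomial (Clopper-Pearson) intervals for shares and exact order-statistic intervals for medians. They reflect counting error alone, as if each peak were independent, which neighbouring peaks are not.

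Taken as a whole, the parts outside the piRNA domains carried about as many CHD-3 peaks per Mb as the domains. There were 59.9 peaks per Mb outside over 11.3 Mb and 63.7 per Mb inside over 6.20 Mb, a ratio of 0.94 (interval 0.83 to 1.07). The ratio was lower for peaks at or above the median score of the list, at 0.83, for covered length, at 0.80, and for peaks of 1000 bp or more, at 0.46. The 677 peaks were 63.2% of the peaks of chromosome IV (60.2 to 66.0%), and the 3 parts together made up 64.6% of its length as far as the last base of the last peak, 17493002. This near equality joined unlike parts. The left arm held 79.8 peaks per Mb, the middle stretch 47.1 and the right end 41.0, against 61.2 in the left and 65.4 in the right piRNA domain and 49.3 in the whole list.

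The left arm thus had 1.69 times the peak density of the middle stretch (interval 1.45 to 1.98). In windows of 100 kb, the median of the 45 windows of the left arm was 7 peaks with an interquartile range of 4 to 11, and the median of the 65 windows of the middle stretch was 4 with a range of 2 to 6. The 62 windows of the piRNA domains had a median of 6 peaks. Windows with 10 peaks or more were 15 of 45 in the left arm, 7 of 65 in the middle stretch and 11 of 62 in the domains. The ranges overlapped, since single windows ran from 0 to 19 peaks in the left arm, from 0 to 16 in the middle stretch and from 0 to 26 in the domains.

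**Figure D1:**
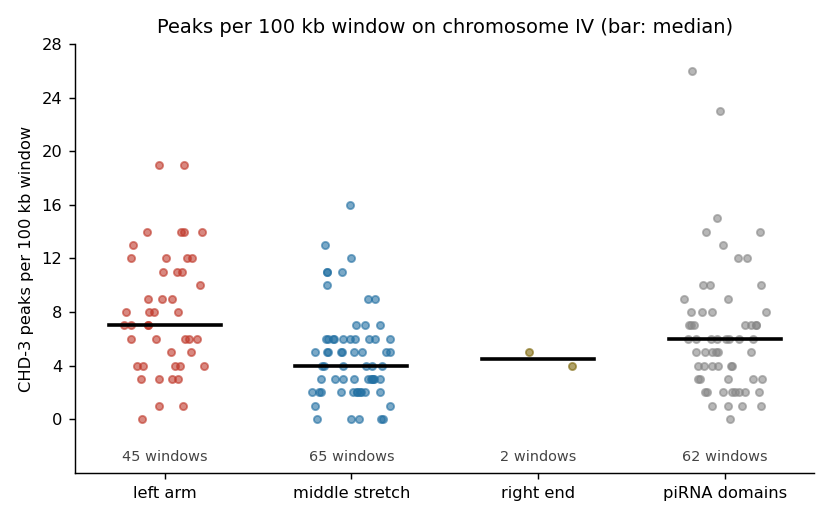
Number of CHD-3 peaks in each full 100 kb window (vertical axis) of the left arm, the middle stretch, the right end and the 2 piRNA domains together. Each point is 1 window, shifted sideways at random so that points stay visible, and the black bar is the median (7, 4, 4.5 and 6 peaks). Most left arm windows lie above the median of the middle stretch, and the 2 fullest windows of all lie inside the domains.

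The higher density of the left arm was mostly a matter of peaks with low scores. The authors deposited a score with each peak without naming its scale. Scores started at 50, and 111 peaks of the list shared 3100, so the score serves here only to rank and class peaks. Peaks below the median score of the whole list, 116, numbered 45.1 per Mb in the left arm and 23.2 per Mb in the middle stretch, a ratio of 1.94. For peaks at or above that median the values were 34.7 and 23.8 per Mb, a ratio of 1.45. Broad peaks of 1000 bp or more went the other way, with 2.67 per Mb in the left arm and 4.31 per Mb in the middle stretch, a ratio of 0.62. That ratio rests on 12 and 28 peaks and no interval was computed for it, so the order of these densities is not firm. In the piRNA domains the same 3 classes had 30.3, 33.4 and 7.74 peaks per Mb. The order for broad peaks depended on how the list splits peaks. With peaks less than 500 bp apart merged, 14.1% of 256 left arm regions and 18.1% of 221 middle stretch regions reached 1000 bp. As merged regions numbered 56.9 and 34.0 per Mb, those of 1000 bp or more were then denser in the left arm.

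By their medians, left arm peaks were accordingly narrower than middle stretch peaks, while the median scores did not clearly differ. The median width was 285 bp in the left arm (interval 271 to 303), 340 bp in the middle stretch (316 to 377) and 254 bp in the right end, beside 329 bp in the piRNA domains (299 to 357). The median score was 106 in the left arm (97.5 to 113), 118 in the middle stretch (107 to 140) and 121 in the domains (105 to 138), and these 3 intervals overlapped. Between 200 and 500 bp lay 64.9% of the left arm peaks and 54.2% of the middle stretch peaks. The share of broad peaks was 3.34% in the left arm (12 of 359, 1.74 to 5.77%) and 9.15% in the middle stretch (28 of 306, 6.17 to 13.0%), intervals that did not overlap. In the piRNA domains it was 12.2% (48 of 395, 9.10 to 15.8%), and in the whole list 9.60%.

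**Figure D2:**
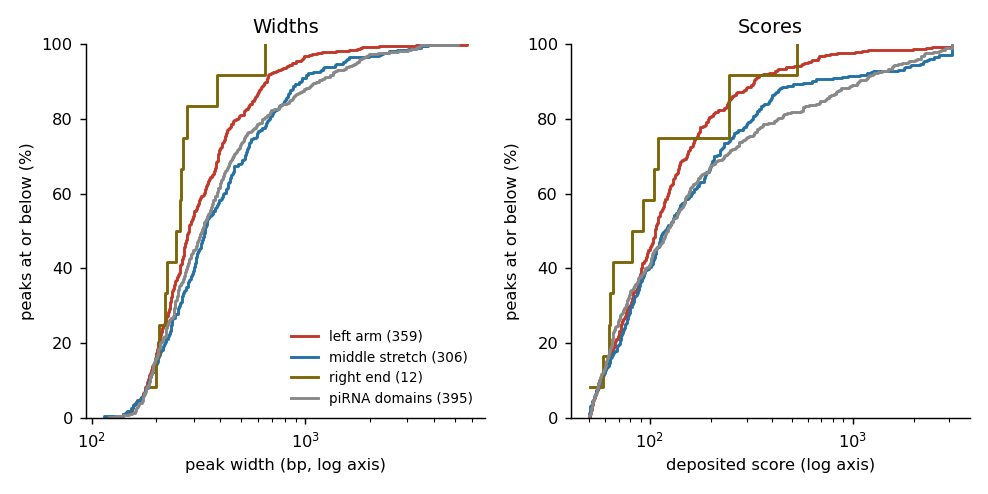
Percent of peaks (vertical axes) at or below a given width in bp (left panel, log axis) or deposited score (right panel, log axis), for the left arm, the middle stretch, the right end and the piRNA domains, with the number of peaks in the legend. The left arm curve runs above that of the middle stretch at widths near the medians of 285 and 340 bp, and the middle stretch curve has a longer tail of high scores.

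Between left arm and middle stretch, the base pairs inside peaks differed less than the peak numbers did. Peaks covered 31.6 kb per Mb in the left arm, 24.9 in the middle stretch and 11.6 in the right end, against 33.9 in the piRNA domains. The left arm to middle ratio was 1.27 for covered length, where it was 1.69 for peaks. Broad peaks supplied 16.9% of the covered length of the left arm, 33.6% of that of the middle stretch and 41.8% of that of the domains.

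The outermost 4.5 Mb of the other chromosomes were set beside the left arm of IV, a comparison chosen after the data had been seen. Of the 12 chromosome ends so cut, the left end of IV had the most peaks per Mb and the smallest share of broad peaks. The 10 ends of the other 5 chromosomes ran from 31.6 to 61.8 peaks per Mb, with a median of 47.2, and from 5.77 to 14.5% broad peaks. The end nearest in density was the right one of IV, at 62.4 peaks per Mb and 11.0% broad, and it consists largely of the right piRNA domain. The median width of the left arm, 285 bp, and its median score, 106, lay within the ranges of those 10 ends (275.5 to 375 bp and 96.0 to 140). The left end of X covered as much, 31.5 kb per Mb, with 47.6 peaks per Mb, of which 14.5% were broad.

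**Figure D3:**
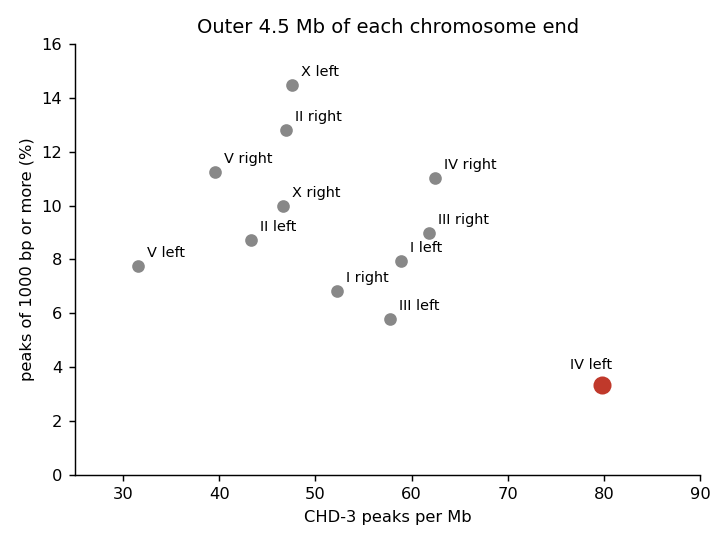
Peaks per Mb (horizontal axis) and percent of peaks of 1000 bp or more (vertical axis) in the outer 4.5 Mb of both ends of each chromosome. Each point is 1 end, right ends being measured from the last peak. The left arm of IV (large red point, 79.8 per Mb and 3.34%) lies farthest to the right and lowest of the 12 points.

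Within the left arm, density varied more along the arm than width or score did. Bins of 500 kb held from 18 peaks (3500001 to 4000000) to 62 peaks (1500001 to 2000000). Their median width stayed between 261.5 and 345.5 bp, except in the bin next to the piRNA domain (4000001 to 4500000), where it was 399 bp. Their median score ran from 94.3 to 115, and was 147 in that bin. The part from 1400001 to 1900000 was the most evenly dense, with 14, 14, 14, 11 and 14 peaks in its 5 windows of 100 kb. In a series found after the values were seen, 129 neighbouring peaks from 1477425 to 2793262, over 1.32 Mb, included no broad one. Their median width was 272 bp, the widest measured 868 bp, and their median score was 104. The longest such series in the middle stretch had 28 peaks over 0.73 Mb, from 9524156 to 10253139.

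The fullest windows of the left arm held 19 peaks each and were of unlike kinds. In the window from 800001 to 900000 no peak was broad, 6.01 kb lay inside peaks and the median score was 87.2. The window from 4400001 to 4500000, which touches the piRNA domain, had 15.1 kb inside peaks and a median score of 182. It held the widest of all 677 peaks, 4416385 to 4422088, of 5704 bp and with the tied score of 3100.

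The outer and inner parts of the left arm, cut at 2.25 Mb, had 85.8 and 73.8 peaks per Mb, with 3.11 and 3.61% broad peaks. The left and right parts of the middle stretch, cut into equal lengths, both had 47.1 peaks per Mb and 9.15% broad peaks, with median scores of 111 and 142.

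**Figure D4:**
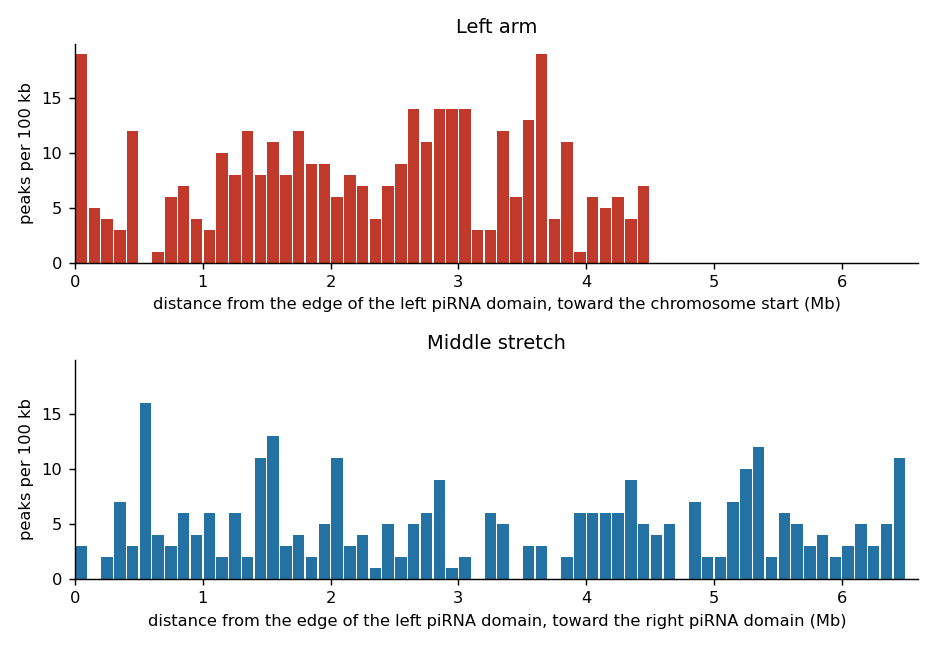
Peaks per 100 kb window (vertical axes, bars from 0) along the left arm (upper panel) and the middle stretch (lower panel), plotted by distance in Mb from the edge of the left piRNA domain. The left arm has a window of 19 peaks at the domain edge and another 3.6 to 3.7 Mb away from it, and 1 empty window. The middle stretch has 5 empty windows and at most 16 peaks in a window.

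The middle stretch had fewer peaks than the left arm but more of those with the highest scores. Scores of 1000 or more were found for 26 of its 306 peaks (8.50%, 5.63 to 12.2%), for 9 of 359 in the left arm (2.51%, 1.15 to 4.71%) and for none of 12 in the right end (interval up to 26.5%), beside 43 of 395 in the piRNA domains (10.9%). Between 500 and 1000 there were 13 peaks in the left arm (3.62%), 8 in the middle stretch (2.61%) and 29 in the domains (7.34%). No interval was computed for this class, and the counts of the first 2 parts are too small to rank them. Of the 11 regions at the tied score of 3100, 8 were among the 306 of the middle stretch and 3 among the 359 of the left arm. The piRNA domains had 4 among 395. In the whole list 111 of 4940 peaks had that score and 2 a higher one. The share of the middle stretch was thus close to that of the whole list. Those of the left arm and of the piRNA domains were lower, but no interval was computed, and counts of 3 and 4 are too small to rank. The 5 widest regions outside the domains were all among the 11 named first. After the left arm peak of 5704 bp came 4 of the middle stretch, at 11070914 to 11075930 (5017 bp), at 12021971 to 12025701 (3731 bp), at 8578207 to 8581689 (3483 bp) and at 12316139 to 12319445 (3307 bp). The others named by score were 3206303 to 3209592 (3290 bp) and 2828426 to 2830631 (2206 bp) in the left arm, and 9045745 to 9048762 (3018 bp), 8575648 to 8578115 (2468 bp) and 13360442 to 13362040 (1599 bp) in the middle stretch.

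Of these 11 regions 8 had no neighbour less than 500 bp away. The left arm peak at 2828426 had its neighbours 35.2 and 42.8 kb away, the one at 3206303 had them at 39.8 and 22.3 kb, and the middle stretch peak at 13360442 at 45.7 and 32.9 kb. The other 3 were the peaks at 8575648 and 8578207, which lay 91 bp apart in the same run, and the eleventh tied peak, 8468549 to 8469937, which lay 11 bp from its neighbour.

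Width and score went together in each part, with Spearman's rho of 0.84 over 359 left arm peaks, 0.88 over 306 middle stretch peaks and 0.71 over the 12 of the right end. These are descriptions across peaks of 1 list, and whether the score depends on the number of reads in a peak is not known. Some regions departed from the relation, and they were picked out after their values were seen. Scores of 1000 or more occurred at 11 peaks under 1000 bp, 2 in the left arm and 9 in the middle stretch. In the left arm these were the first peak of the chromosome, from base 1 to 254 with a score of 1108, and 3366621 to 3367217 (597 bp, score 1985). In the middle stretch the narrowest was 7441055 to 7441490 (436 bp, score 1949) and the highest was 12637918 to 12638626 (709 bp, score 2221). A pair of them stood close together, 10943414 to 10944245 (832 bp, score 1815) and 10945557 to 10946253 (697 bp, score 2141). Broad peaks with scores below 500 numbered 2 in the left arm and 8 in the middle stretch, the widest being 7593315 to 7595530 (2216 bp, score 421).

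Relative to the number of peaks, runs of close peaks were about as frequent in the left arm as in the middle stretch. A run is a chain of peaks with gaps of less than 500 bp between neighbours. In the left arm 103 of 358 neighbouring pairs were that close, or 28.8% (24.1 to 33.8%), and in the middle stretch 85 of 305, or 27.9% (22.9 to 33.3%). In the piRNA domains the share was 31.8% (27.2 to 36.7%), and in the whole list 28.1%. The left arm had 59 runs with 162 peaks and the middle stretch 51 runs with 136 peaks, so 45.1 and 44.4% of the peaks were in runs. As these parts measure 4.5 and 6.5 Mb, runs were more frequent per Mb in the left arm. Most runs were pairs, 40 in the left arm and 37 in the middle stretch. Runs of 4 peaks numbered 9 in the left arm and 1 in the middle stretch, and runs of 5 or more 4 and 5.

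Broad peaks were found both in runs and as single peaks. In the left arm they were 4 of 162 peaks in runs (2.47%) and 8 of 197 single peaks (4.06%). In the middle stretch they were 15 of 136 in runs (11.0%) and 13 of 170 single ones (7.65%). The intervals of these shares overlapped within each part. Counted as regions, with each run as 1, the left arm had 56.9 per Mb and the middle stretch 34.0, a ratio of 1.67 beside 1.69 for peaks as listed.

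The run with most peaks in the left arm joined 10 peaks from 688980 to 698240, over 9.26 kb of which 82.0% lay inside peaks. Its peaks were alike: 9 of them scored from 168 to 301 and were 514 to 1070 bp wide, and the remaining one scored 64.9 at 340 bp. The second joined 8 peaks from 4467939 to 4474292 over 6.35 kb, in the window next to the piRNA domain. Its scores had 2 maxima, of 772 and 671, with the lowest, 54.6, between them. Of the 2 runs with 5 peaks, the longer ran from 3322903 to 3324777 over 1.88 kb, with scores from 64.8 to 173.

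In the middle stretch the runs with most peaks were low in score: 9 peaks from 7592071 to 7599754 over 7.68 kb had a median score of 89.6, and 9 peaks from 12321206 to 12325641 over 4.44 kb had a median of 104. The second of these began 1.76 kb after the broad peak at 12316139. The third run, from 8572614 to 8581689, joined 6 peaks over 9.08 kb and was 97.4% covered. Its scores in order were 2258, 1672, 83.1, 659, 3100 and 3100. A similar run lay 101 kb to its left, from 8466582 to 8471489, where 5 peaks over 4.91 kb scored 64.0, 215, 3091, 3100 and 2389 in order. These 2 had the highest median scores, 1965 and 2389, of all runs of 3 or more peaks outside the domains, a property looked for after the values were seen. The remaining run of 5 peaks, 13462309 to 13465012, lay to the right of all of these. Its median score of 221 was between those of the low and the high runs, with single scores from 71.45 to 1907.

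**Figure D5:**
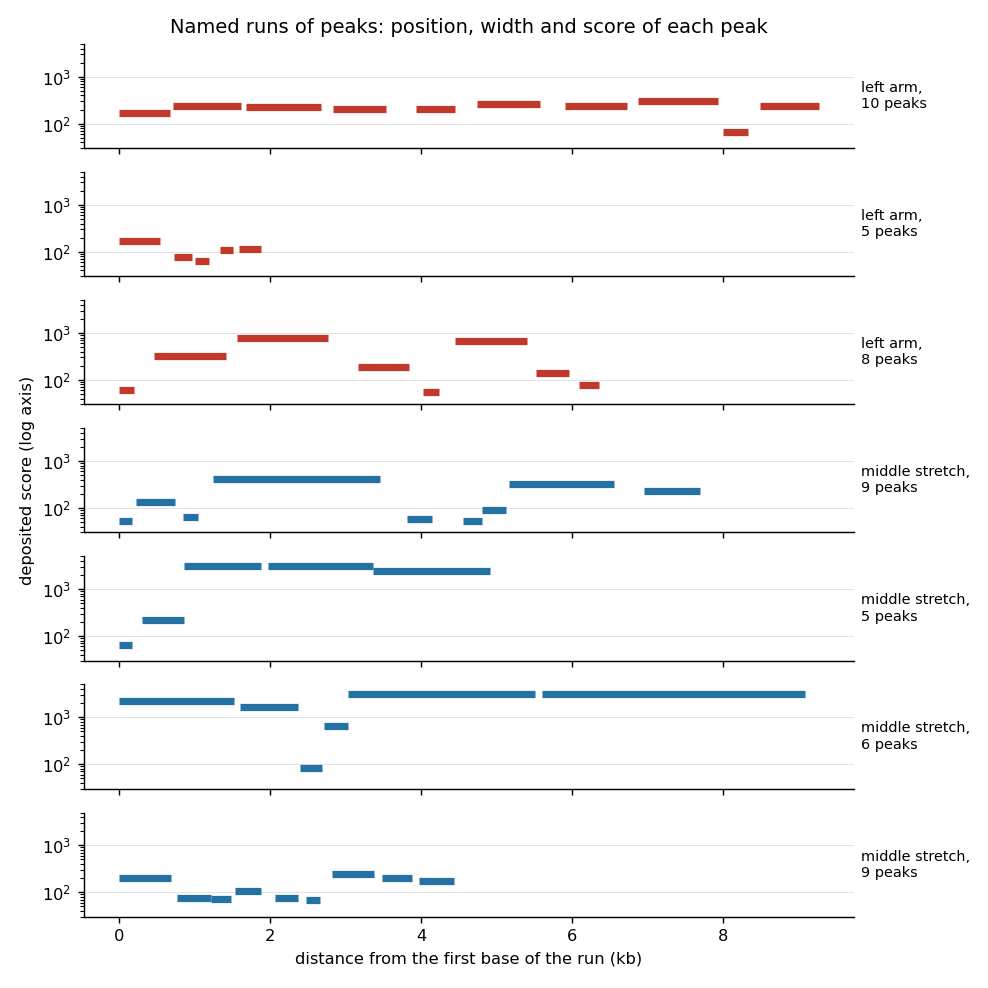
Peaks of 7 runs, 3 of the left arm (red) and 4 of the middle stretch (blue). Each horizontal line is 1 peak, drawn from its first to its last base as distance in kb from the first base of the run (horizontal axis) at its deposited score (vertical axes, log scale). The runs of 5 and 6 peaks of the middle stretch reach 3100, and no peak of the other 5 runs exceeds 772.

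The longest empty stretches were longer, and those of 100 kb or more were more numerous, in the middle stretch than in the left arm, which had the higher density. The median distance between neighbouring peaks was 3639 bp in the left arm and 7586 bp in the middle stretch. It was 4020 bp in the piRNA domains and 5582.5 bp in the whole list. Distances of 100 kb or more numbered 2 in the left arm, 12 in the middle stretch and 8 in the domains. Those of 50 kb or more numbered 23 in the left arm and 38 in the middle stretch, and those of 10 kb or more 125 and 143. As these parts measure 4.5 and 6.5 Mb, distances of 10 kb or more were more frequent per Mb in the left arm. Distances of 50 kb or more took up 34.9% of the left arm, 51.5% of the middle stretch and 40.7% of the domains. In the whole list they took up 55.1% of the length.

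In the middle stretch the longest distance without a peak was 180.0 kb, from 7050169 to 7230165, which begins 50.2 kb beyond the left piRNA domain. The next were 161.7 kb from 10342009 to 10503700 and 150.2 kb from 10062141 to 10212299. With those from 10682241 to 10816857 (134.6 kb) and from 9874450 to 9998543 (124.1 kb), 4 of the 5 longest fell between 9874450 and 10816857. The bins from 10000001 to 10500000 and from 10500001 to 11000000 had 13 and 14 peaks, the fewest of the 13 bins of the middle stretch. The second of them had the highest median score of any bin outside the domains, 260, and a median width of 580 bp.

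In the left arm the longest distances were 144.1 kb (3874903 to 4018959), 128.2 kb (3746432 to 3874633) and 87.6 kb (453806 to 541377). The 2 longest adjoined each other, parted only by a single peak of 269 bp with a score of 78.4. The third was likewise followed by one of 86.5 kb (541587 to 628112) after a single peak of 209 bp with a score of 57.95.

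The right end is short, at 0.293 Mb, where the median of 12 peaks was 254 bp for width (207 to 281) and 87.0 for score. The interval of that score, 63.0 to 245, takes in the medians of the left arm, the middle stretch and the piRNA domains, so no difference in score can be read from 12 peaks, nor from their 41.0 per Mb one in density. They began with a pair, 17218378 to 17218638 (score 92.0) and 17218761 to 17219406 (score 246), the second being the widest of the 12 at 646 bp. Then came 3 single peaks at 17236405 (score 105), 17280899 (score 63.7) and 17323076 (score 110). After the longest distance of the right end, 65.5 kb, 4 peaks stood within 3 kb from 17388832 to 17391576 and scored 63.0, 58.7, 65.95 and 82.0. A single peak at 17439122 had the lowest score, 50.7. The last 2 peaks of the chromosome, 17492275 to 17492543 (score 245) and 17492618 to 17493002 (score 530), lay 74 bp apart, and the last had the highest score of the 12. At the other edge of the chromosome the peak at base 1 scored 1108, while the 7 peaks of the first 100 kb, this one included, had a median of 77.3. Whether the last peak reaches the end of the sequence was not tested.

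At 4500000, the upper limit of the left arm, the nearest members, 22.4 and 25.8 kb away, were 594 and 270 bp wide with scores of 470 and 77.8, and the nearest peaks beyond it, 0.893 and 1.90 kb away, were 268 and 185 bp wide with scores of 88.65 and 50.9. At 7000000 the members lay 23.0 and 48.1 kb away (scores 186 and 87.5) and the peaks on the domain side 85.7 and 115.1 kb away (scores 56.0 and 57.4). At 13500000 the members were 35.1 and 35.5 kb away (scores 71.45 and 168), and the domain peaks 0.211 and 3.65 kb away (scores 228 and 457). At 17200000 the members were 18.5 and 19.1 kb away (scores 92.0 and 246) and the domain peaks 21.5 and 21.9 kb away (scores 150 and 118).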

How the data were processed

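ChIP and input DNA were sequenced from fem-2(b245) worms. The peak list of the ChIP sample was used, and the input library was not analysed here. Peaks were called by MACS on WS220, per the file headers and source column; BWA and ce10 are named in the submitters' processing notes. The sources used here give no version, threshold, control or pooling. The score the authors deposited has no named scale. Per the file headers the positions are GFF3, counted from 1. The depth is unknown, and no signal measured in input stands beside any value.

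Densities used 4.5 Mb for the left arm, 6.5 Mb for the middle stretch and the distance to the last peak for the right end. Runs chained peaks less than 500 bp apart. Values were computed with Python 3.11.15, pandas 2.3.3 and scipy 1.17.1. The chaining was checked on 20 simulated lists and recovered the planted runs in 20. The interval of a density ratio comes from the exact interval of the split of peaks, and a difference of medians or shares has as bounds the differences of the opposite bounds of the 2 intervals.

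The regions and measures were chosen with earlier results of these data known. Named by rule were the 10 regions with the highest score (ties by width), the 5 widest, the runs with most peaks, the longest distances without a peak, the first and last peak and the peaks nearest the limits. No genome or annotation of WS220 was used here, so no gene or sequence is given for any peak.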

Additional observations from a re-analysis of the deposited data

How the results depend on the processing

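Alternatives kept the upper 50% of all peaks by score, merged peaks with gaps under 500 bp, widened or narrowed the piRNA domains by 250 kb, used gaps of 250 and 1000 bp, removed the tied scores, and, chosen after seeing the data, left out the right end. Of 32 recomputed values, 4 moved out of the interval of the reported value and 3 changed sign. The other 25 did neither. For the share of chromosome IV peaks outside the domains no direction was defined. With widened and narrowed domains the share of chromosome IV peaks outside them was 57.7 and 69.3%, since the length outside changes by construction, while the density ratio of outside to inside was 0.96 in both. That ratio was 0.83 in the upper 50% by score, at the edge of its interval. In the upper 50% by score, the median width of the left arm minus that of the middle stretch was -117.5 bp (-55 bp for all peaks), and the median score difference was -62.3 (-12.2 for all). The left arm to middle density ratio ranged from 1.45 to 1.68 over its alternatives, with 1.69 reported. With close peaks merged, the share of regions of 1000 bp or more was 14.1% in the left arm and 18.1% in the middle stretch. That difference was -4.04 percentage points, and -5.81 for peaks as listed. The difference in close neighbours, 0.90 percentage points for left arm minus middle stretch, has an interval of -9.13 to 10.9 and no firm direction: it was -0.78 in the upper 50% by score, -0.44 with widened domains and -0.12 with gaps under 1000 bp. The interval of the score difference, -42.2 to 6.02, also includes 0. Without replicates or read counts, no value can be set against the variation between cultures, and weak peaks cannot be told from uneven background.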
